A study of Oryza sativa Japonica Group with 8 samples.

Results

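The comparison sets 2 transgenic rice lines that carry the same construct against each other, OsYHB line 1 and OsYHB line 9. OsYHB is a constitutively active allele of phytochrome B, and the construct drives it from the maize Ubiquitin promoter in the japonica cultivar Nipponbare. Members were chosen by sample title and number 4 of the 8 arrays of the series, 1 array for each line in darkness and 1 for each line in red light. The other 4 arrays are wild-type Nipponbare, with 2 biological replicates in darkness and 2 in red light. All seedlings were 5 d old and had grown at 28 °C on MS medium, and the above-ground tissue was harvested. Red light was continuous at 50 µmol per square metre per second, and dark-grown plants were handled under dim green light. The labels give 41-fold overexpression of OsYHB over wild type in line 1 and 23-fold in line 9. Each line is a homozygous line that segregates as an insertion at a single locus, so the comparison is of one insertion with another. Line and biological replicate number coincide in the transgenic arrays, and their contributions cannot be told apart.

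Phytochromes are red and far-red light receptors. Red light turns them into an active form that moves to the nucleus and promotes the removal or inhibition of transcription factors that maintain dark growth. Grass seedlings then replace elongation with leaf expansion and chloroplast development, and an allele that is active without light starts this programme in darkness.

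The values are log2 of the deposited intensity of each probe set, a group of short oligonucleotides that together report on a transcript. The median intensity was 20.9 in each dark OsYHB array, 20.8 and 20.7 in the red light arrays of line 1 and line 9, and 20.4 to 20.6 in wild type. Intensities below 16, which is log2 of 4, made up 45.1% to 45.9% of the probe sets of an array. The files give no detection call. A low value may therefore be background only, and the size of a difference against it is uncertain. With 1 array per line and light, precision is limited by the count of arrays. The line difference is line 1 minus line 9, taken in each light and averaged. The difference of wild-type replicate 1 minus replicate 2 was measured in the same way and serves as the background of 2 samples that share a genotype.

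A marker sequence was bright in both lines and dim in wild type. Probe sets for reporter or marker sequences were kept only where some array was bright. The probe set that was kept read 2.85 to 3.02 in the 4 wild-type arrays. It read 13.18 in line 1 and 12.90 in line 9 in darkness, and 13.26 and 13.02 in red light. It was higher in line 1 in both lights, but the difference of 0.26 (SE 0.125) did not pass the test (limma, adjusted p = 1). Neither did the phytochrome genes. PHYB, the endogenous gene of the receptor that was engineered, read 9.65 in line 1 and 10.04 in line 9 in darkness, and 9.63 and 9.85 in red light, against 9.83 to 10.38 in wild type. The line with the higher stated overexpression thus had the lower PHYB value in both lights, with a difference of -0.30 (SE 0.170, limma, adjusted p = 1). The PHYB values of both lines lay within or below the wild-type range, and the target of that probe set relative to the transgene is not known here, so it does not check the stated overexpression. PHYC, a partner of phytochrome B in rice, differed by 0.01, and both probe sets of PHYA, the phytochrome that accumulates in darkness, by 0.03 and 0.02.

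By the standard deviation over the whole array, the lines were about as much alike as wild-type replicates. The standard deviation of the difference over 57258 probe sets was 0.271 between the lines in darkness and 0.291 in red light. It was 0.350 and 0.244 between the wild-type replicates in the same lights. Large differences were few. In red light, differences beyond 1 on the log2 scale numbered 501 between the lines (0.875%) and 231 between wild-type replicates (0.403%). In darkness they numbered 290 (0.506%) and 788 (1.38%). Beyond 3 there were 47 and 5 in red light, and 15 and 17 in darkness. Fewer held in both lights. Differences beyond 1 on the log2 scale, of one sign in darkness and red light, were found in 84 probe sets between the lines (0.147%) and in 48 between wild-type replicates (0.0838%). Beyond 2, they were found in 27 probe sets between the lines (0.0472%) and in 4 between wild-type replicates (0.00699%). Beyond 3, there were 12 (0.0210%) and 1 (0.00175%).

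In the fit across all arrays, 42 of 57258 probe sets (0.0734%) differed between the lines at an adjusted p below 0.05 (limma, Benjamini-Hochberg). Of these, 23 were higher in line 1 (0.0402%) and 19 were higher in line 9 (0.0332%). The same fit called 3 probe sets between the wild-type replicates (0.00524%). Before adjustment, p was under 0.05 for 4.63% of probe sets between the lines and for 6.36% between the wild-type replicates. The count depends on how dim probe sets are treated. It was 4 when only probe sets with a mean log2 intensity of at least 5 were tested, and 1 after 16 was added to each intensity. Leaving out any array left 6 to 16 calls, with 6 without either red light OsYHB array. The 42 had the same sign under every alternative in which they were tested, but many alternatives could not change it. Wild-type arrays do not enter the line difference. Leaving out an OsYHB array leaves the difference in the other light, and a call favours differences that are alike in both lights.

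**Figure D1:**
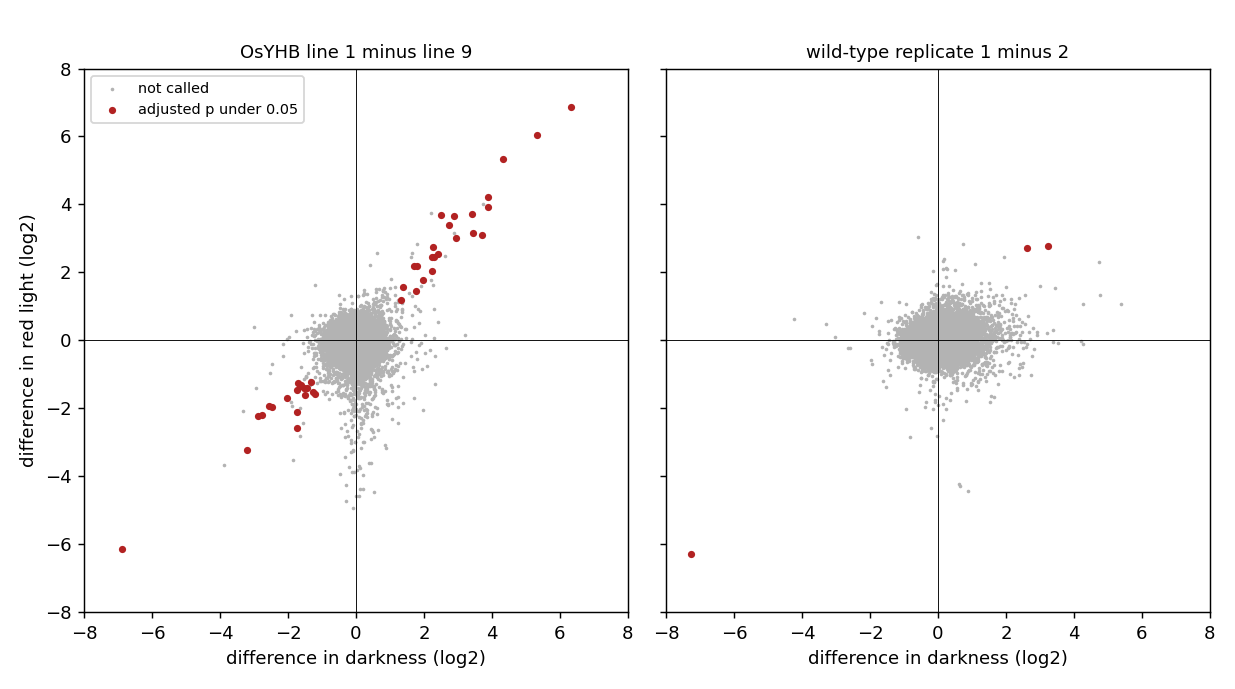
Each point is a probe set. The left panel plots the difference of OsYHB line 1 minus line 9 in darkness (x axis, log2) against that in red light (y axis, log2), the right panel wild-type replicate 1 minus replicate 2 in the same way, and red points had an adjusted p under 0.05. The 42 called line differences lie along the diagonal, as do 3 probe sets in wild type. The test favours such agreement between the lights. On the left, 80 uncalled probe sets hang below zero, lower in line 1 by over 2 in red light and within 1 in darkness.

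The called differences were large and alike in both lights. The test takes its spread in part from the change of the difference with light, so a call favours differences that are alike. Their size ran from 1.26 to 6.59 on the log2 scale with a median of 2.23, and the values in darkness and in red light lay a median of 0.32 apart. In 22 of the 42, one of the lines read below 4 in both lights. In 41, the smaller of the line differences in the 2 lights exceeded the larger of the wild-type replicate differences. Either line could be the one that departed from wild type. In both lights line 1 was the line nearer to the wild-type mean in 23 of the 42, line 9 in 14, and 5 were mixed, against 23.3%, 24.2% and 52.5% of all probe sets. Since a call favours differences that are alike in both lights, few calls could be mixed, and the low mixed count follows in part from that. None of the 42 had both lines within 1 of each wild-type array in the same light, 16 had line 1 alone there, 12 line 9 alone, and 14 neither. Over all probe sets these shares were 88.3% for both lines, 2.78% for line 1 alone, 1.43% for line 9 alone and 7.43% for neither. The calls differ by at least 1.26 between the lines, which leaves little room for both to be near wild type.

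The gene LOC4344865 had the largest value among those higher in line 1. Its log2 intensity was 9.98 and 10.69 in dark wild type and 10.36 and 10.19 in red-grown wild type. In darkness it was 10.12 in line 1 and 3.80 in line 9, and in red light 10.52 and 3.67. Line 1 lay within the wild-type range, and line 9 lay far below every other array in both lights. The line difference was 6.59 (SE 0.232, limma, adjusted p = 0.000542), and it was called in 16 of 17 alternatives. Such tallies hold repeats. Leaving out any wild-type array gave the same line test as the OsYHB arrays alone. Leaving out line 1 in a light gave the same line test as leaving out line 9 there. The alternatives are therefore not independent checks. Os.46431.1.S1_at, a probe set without an annotated gene, had the same arrangement at a smaller size, with 9.5 to 11.43 in wild type, 11.05 and 10.80 in line 1, and 7.17 and 6.58 in line 9. Here the wild-type replicates themselves were 1.93 apart in darkness, and the difference of 4.05 (limma, adjusted p = 0.0155) was called in 7 of 16 alternatives. LOC4343144 was low in line 9 by 2 probe sets, which differed between the lines by 3.57 and 2.47.

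Other probe sets were high in line 1 alone. Os.16001.1.S1_at read 2.04 to 2.38 in the 4 wild-type arrays and 2.35 and 2.38 in line 9, against 7.69 in line 1 in darkness and 8.42 in red light. The 6 arrays outside line 1 were all at the dim end of the scale, and the difference was 5.69 (SE 0.194, limma, adjusted p = 0.000542), called in 14 of 15 alternatives. Os.16030.1.S1_at read 7.65 in darkness and 8.03 in red light in line 1, 3.32 and 2.68 in line 9, and 2.41 to 2.77 in wild type. It differed by 4.84 (SE 0.235, limma, adjusted p = 0.00287), and was called in 9 of 15 alternatives. A second probe set of the same transcript cluster differed by 3.10. LOC4338553 was expressed everywhere and higher in line 1. It read 6.27 and 6.43 in dark wild type, 5.65 and 5.62 in red-grown wild type, 5.62 and 5.79 in line 9, and 9.5 and 9.73 in line 1. Its difference of 3.91 (SE 0.126, limma, adjusted p = 0.000542) was the only one called in all alternatives tried, 17 of 17.

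Of those higher in line 9, Os.55278.1.S1_at stood furthest out. It read 2.85 to 3.26 in wild type, 2.58 and 2.61 in line 1, and 9.48 in darkness and 8.77 in red light in line 9. Only the line 9 arrays were bright, and the difference was -6.52 (SE 0.203, limma, adjusted p = 0.000542), called in 14 of 15 alternatives. Both probe sets of the transcript cluster Os.48948 were also bright in line 9 alone, with differences of -3.22 and -2.48, called in 12 and 4 of 15 alternatives. Os.32889.1.S1_at read 7.15 and 7.34 in line 9, 4.27 and 5.11 in line 1, and 4.03 to 4.97 in wild type, a difference of -2.56 that was called in 3 of 16 alternatives. LOC4351650 differed in the other way from wild type. Its brighter probe set read 7.08 to 7.76 in wild type, 7.59 and 7.71 in line 9, and 5.03 and 5.77 in line 1, so that line 1 was the low line, by -2.25 (SE 0.196, limma, adjusted p = 0.0262), called in 3 of 17 alternatives. A second probe set of that gene differed by -1.50 and was called, and a dim one by -0.38 and was not.

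**Figure D2:**
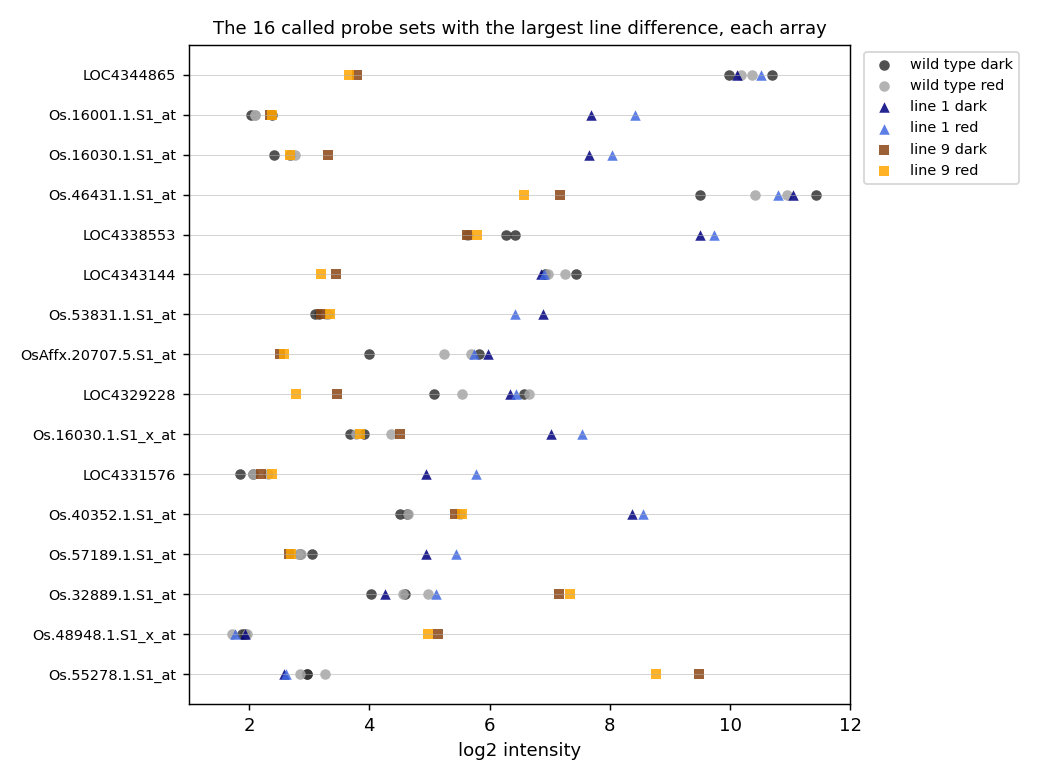
Log2 intensity (x axis) in each of the 8 arrays for the 16 called probe sets with the largest line difference, 1 per row, where a probe set without an annotated gene stands under its own name. Triangles are line 1, squares line 9 and circles wild type. In LOC4344865 the squares at 3.80 and 3.67 stand apart from the other 6 arrays, and in Os.55278.1.S1_at the squares at 9.48 and 8.77 do.

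The only called probe set whose gene has a name was that of AARE1, an acylamino-acid-releasing enzyme, a peptidase that acts on the blocked ends of peptides. The probe set read 4.91 to 5.07 in the 4 wild-type arrays, 5.17 and 5.37 in line 1, and 6.50 and 6.61 in line 9. It was higher in line 9, with a difference of -1.29 (SE 0.123, limma, adjusted p = 0.0371), and was called in 3 of 16 alternatives. The other probe sets of AARE1, which were brighter, differed by 0.26 and 0.20 toward line 1 and were not called, so the probe sets of this gene disagree. Probe sets also disagreed in LOC4329228, with 3.27 in the called one and 0.81, -0.62 and -0.65 in the others, and in LOC4349151, with -1.42 in the called one and -0.97, -0.30 and 0.44 in the others. The 42 called probe sets stand for 38 transcript clusters. Of them, 19 have 1 annotated gene, 17 genes in all, and 23 have none. The gene LOC4350344 combined a line difference with a light response. It read 12.17 and 11.56 in dark and 6.95 and 6.09 in red-grown wild type, 7.77 in line 1 and 6.37 in line 9 in darkness, and 4.43 and 2.85 in red light. Both lines lay below wild type in each light, and line 9 lay below line 1 in each. The last probe sets inside the threshold were Os.10660.1.S1_at and Os.34424.1.S1_at, both at an adjusted p of 0.0495 (limma), and the first outside was Os.39806.1.S1_at at 0.0505. Os.39806.1.S1_at read 4.60 and 4.50 in line 1, 8.47 and 8.17 in line 9, and 8.17 to 10.49 in wild type, with 2.32 between the dark wild-type replicates.

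The wild-type replicates had differences of the same kind, though fewer. Os.7544.1.S1_at read 2.41 in darkness and 2.72 in red light in replicate 1 and 9.67 and 9.01 in replicate 2, with 2.2 to 2.68 in the 4 OsYHB arrays. The difference of -6.78 (limma, adjusted p = 0.00282) is of the size of the largest line differences. The other 2 probe sets called between the wild-type replicates were both of the gene LOC9268308, which differed by 2.66 and 3.0 there and by 0.07 and 0.13 between the lines.

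Among genes with names, those next in line did not pass the test. MADS58, a floral organ MADS-box factor, read 3.02 in line 1 and 4.91 in line 9 in darkness, 4.16 and 6.10 in red light, and 5.16 to 6.08 in wild type. Line 1 was below line 9 and below every wild-type array, with a difference of -1.91 and an adjusted p of 0.0617 (limma). It passed with quantile normalization, an intensity trend or no replicate term in wild type, with adjusted p-values of 0.0410, 0.0487 and 0.0485 (limma). ILL8, of the family of enzymes that release auxin from amino acid conjugates, read 7.15 in line 1 and 6.16 in line 9 in darkness and 6.79 and 5.23 in red light. HAP2A, a subunit of the CCAAT-binding factor NF-Y, read 6.91 and 5.35 in darkness and 6.46 and 5.08 in red light. Both were higher in line 1 in each light, by 1.27 and 1.47, with adjusted p-values of 0.130 and 0.207 (limma). For HAP2A, wild type read 6.35 and 5.21 in darkness and 6.07 and 5.82 in red light, so its dark replicates were 1.13 apart. JAZ5, a repressor of jasmonate signalling, read 4.92 and 5.88 in darkness and 4.93 and 5.75 in red light. It was lower in line 1, by -0.89 (limma, adjusted p = 0.272). The other named genes with the largest test statistics were MADS26, MADS15, MADS24, the tryptophan decarboxylase gene TDC2, the cytokinin response regulator gene OsRR9, CYP87A3, GK1 and the Argonaute gene AGO14, which were 0.49 to 0.64 higher in line 1. On the other side were GLU6, OsMAS, the cellulose synthase-like gene OsCslF8, the beta-glucosidase gene BGLU22, the chitinase gene chia4a, NH1, a homologue of the salicylic acid receptor gene NPR1 of Arabidopsis, and AAH. Those had values of -0.47 to -0.89, and none of these genes was called.

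The lines differ in stated overexpression, and genes that respond to red light were therefore compared between them. The 4 wild-type arrays alone chose 3329 probe sets at an adjusted p below 0.05 (limma, 5.81%), of which 2084 were raised by red light (3.64%) and 1245 lowered (2.17%). In darkness, the raised set was lower in line 1 than in line 9, with a median difference of -0.160 against 0.002 over all probe sets, and only 25.2% of it was higher in line 1 against 50.1% of all. In red light the median was -0.007 and the share 48.8%, against 0.008 and 51.0%. The line with the higher stated overexpression was thus the line with the smaller rise in darkness. The difference between wild-type replicates over this set is not given here, so the shift has no background of arrays that share a genotype. Its relation to the overexpression was not tested. Above dark wild type, the median of the raised set was 1.15 in line 1 and 1.31 in line 9 in darkness, 1.30 and 1.35 in red light, and 1.30 in red-grown wild type, where the dark wild-type arrays also served to choose the set. The lowered set differed by a median of 0.044 in darkness and -0.028 in red light, with medians relative to dark wild type of -1.07 in line 1 and -1.12 in line 9 in darkness. Of the raised set 2 were called between the lines, both lower in line 1, and of the lowered set 2, both higher in line 1. Those are 0.0960% and 0.161%, against 0.0734% of all probe sets. The shifts of the sets were not tested. With any 1 wild-type array left out, no probe set was called for red light, so the sets rest on all 4.

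**Figure D3:**
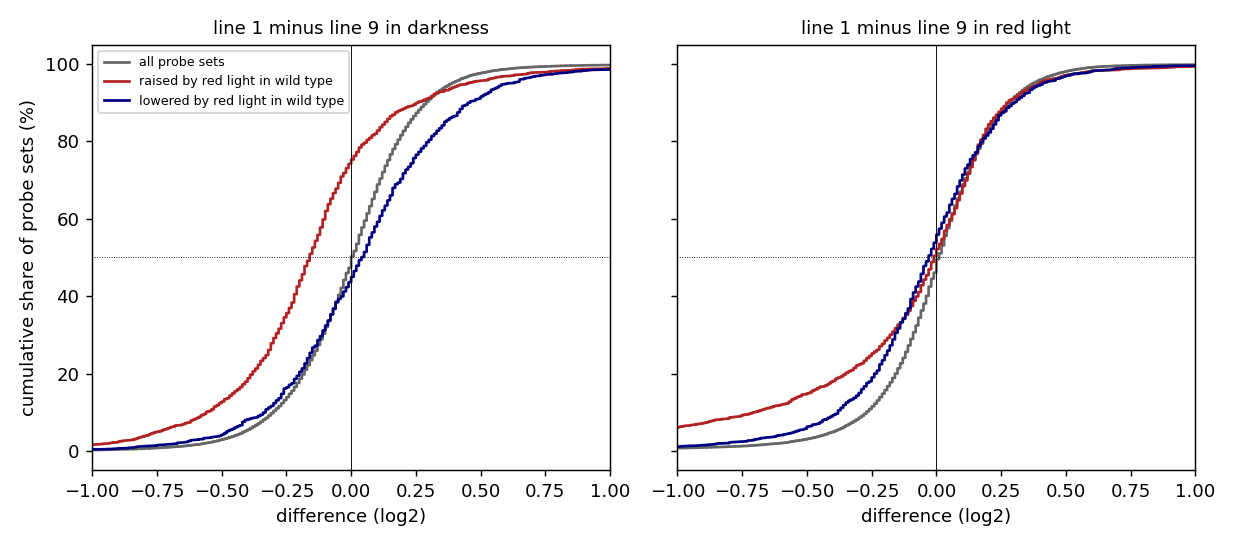
Cumulative share of probe sets (y axis, %) up to a given difference of line 1 minus line 9 (x axis, log2), in darkness on the left and in red light on the right, for all probe sets, the 2084 raised by red light in wild type and the 1245 lowered. In darkness the raised set lies to the left of all probe sets, with a median of -0.160, and in red light its median is -0.007.

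Among single genes of these sets, many lay close together in the lines and some did not. CFBP1, a cytosolic fructose bisphosphatase of sucrose synthesis, read 7.07 in each dark wild-type array, and 11.25 in line 1 and 11.45 in line 9 in darkness. ILL3, of the auxin conjugate hydrolase family, read 11.53 and 11.03 in dark wild type, and 4.12 in line 1 and 4.07 in line 9 in darkness. In both genes the lines lay far from dark wild type and close to each other. NAS1, a nicotianamine synthase of iron transport, read 8.73 and 9.56 in red-grown wild type but 3.36 and 3.74 in the dark arrays of line 1 and line 9 and 4.05 and 3.14 in red light. The lines were alike there too, near the lower of the dark wild-type values, 3.25. Nramp1, a metal transporter gene, read 4.92 and 4.67 in darkness, and 8.29 in line 1 and 6.80 in line 9 in red light, so that line 1 lay nearer to the 9.01 and 9.83 of red-grown wild type. BURP16 read 10.49 in line 1 and 8.78 in line 9 in darkness and 10.73 and 11.65 in red light, where the order of the lines was opposite.

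A second pattern was seen in red light only. Probe sets that were over 2 lower in line 1 than in line 9 in red light, and within 1 in darkness, numbered 80, and 2 had the opposite sign. In darkness alone, 6 were lower and 10 higher in line 1. The wild-type replicates had 10 lower and 9 higher in red light alone, and 6 lower and 65 higher in replicate 1 in darkness alone, so that tails toward one side also occur between arrays of the same genotype. The 80 were chosen by their values and are described without a test. Their median log2 intensity was 3.64 in line 1 and 7.04 in line 9 in red light, 5.81 in red-grown wild type, and 3.41 and 3.28 in the lines in darkness. In line 9 all 80 were over 1 higher in red light than in darkness, and in line 1, 16 were. Wild type in red light was nearer to line 9 in 46 of the 80 and was more than 1 above dark wild type in 57. Red-grown wild-type replicate 1 was higher than replicate 2 in 68 of them, with a median of 0.51. The change of the line difference with light was called for 0 of 57258 probe sets (0%) in limma, with 1730 at an unadjusted p under 0.05 (3.02%), and also for 0 in each alternative tried. That fit takes its spread from the wild-type pairs, so each lone OsYHB array is assumed to vary like them.

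LOC4325422 had the smallest p for a change of the line difference with light. It read 2.14 and 2.46 in dark and 6.74 and 6.83 in red-grown wild type. It read 2.49 in line 1 and 2.56 in line 9 in darkness, and 4.78 and 9.73 in red light. The wild-type arrays lay between the lines in red light, and the lines were level in darkness, but the difference of 4.87 between the lights had an adjusted p of 0.341 (limma). LOC4346529 had the same arrangement by 2 probe sets, which read 3.60 and 2.94 in line 1 and 7.34 and 7.41 in line 9 in red light. These genes were chosen after their values were seen.

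Genes of diterpenoid phytoalexin synthesis were among these 80 probe sets, 8 of the 18 genes on the list. Over the whole array the 80 are of 57258 probe sets, and those with 1 annotated gene cover 54 of 17905 genes. Phytoalexins are antimicrobial compounds that rice makes on infection, elicitation or ultraviolet light, and the momilactones and phytocassanes are made from geranylgeranyl diphosphate by cyclases of the CPS and KSL families and then by cytochromes P450. In red light 13 of the 18 were lower in line 1, 12 differed by over 1, and the median difference was -1.45. In darkness 10 were lower, and the median was -0.04. Over all probe sets, the median was 0.008 in red light and 0.002 in darkness. In red light 0.875% of all probe sets differed by over 1, and 51.0% were higher in line 1. Over both lights the list median was -0.75, against 0.002 over 17905 genes. None of the 18 was called, with 6 lower and 1 higher at an unadjusted p under 0.05, against 4.17% of all genes. The list was singled out after its values were seen.

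Members of both kinds, cyclases and oxidases, had line 1 below line 9 in red light, and other members did not. CPS2, the cyclase that opens the phytocassane branch, read 2.38 in line 1 and 2.17 in line 9 in darkness and 2.98 and 7.36 in red light, against 2.29 and 2.43 in dark and 7.0 and 4.96 in red-grown wild type. CPS4, the cyclase of the momilactone branch, read 3.22 in line 1 and 6.66 in line 9 in red light, against 5.24 and 4.64 in wild type. Line 1 in red light was thus near the dark arrays, and line 9 was above both wild-type arrays in red light. CYP71Z7, a cytochrome P450 of the phytocassane branch, read 3.51 and 7.47 in the lines in red light, against 7.77 and 5.71 in wild type. CYP99A2, of the momilactone gene cluster, read 3.39 and 6.33, against 5.71 and 5.4. CYP701A8 read 3.28 and 7.53, against 6.82 and 6.31. In each of these genes line 1 was the lowest of the 4 red light arrays. The replicates of wild type in red light differed by 2.04 in CPS2 and 2.06 in CYP71Z7, and over the list by a median of 0.55. The kaurene synthase-like genes KSL7, KSL4 and KSL10 read 3.60, 2.41 and 4.40 in line 1 and 5.87, 4.50 and 5.70 in line 9 in red light. The 5 members that were not lower in line 1 in red light included CYP76M5 and CYP701A19, which differed by 0.02 and 0.06. Over both lights the highest member was another kaurene synthase-like gene, KSL5, which was 0.53 higher in line 1 and not called. The red light median of the list was -0.87 with 16 added to each intensity and -0.17 over the members with a mean log2 intensity of at least 5.

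**Figure D4:**
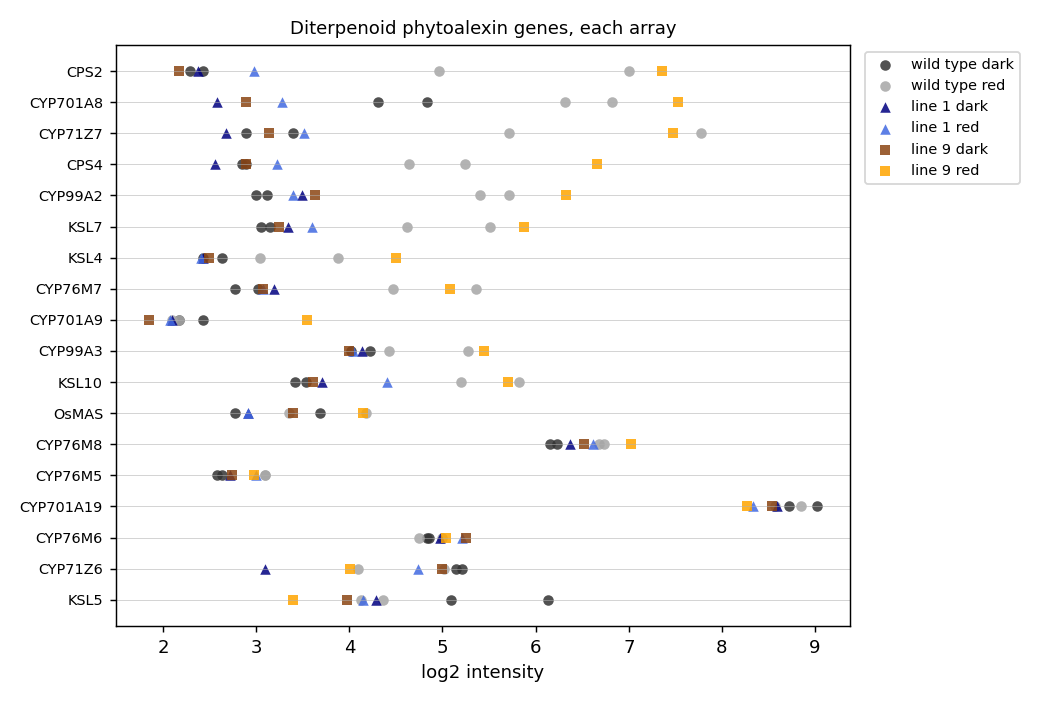
Log2 intensity (x axis) in each of the 8 arrays for the 18 diterpenoid phytoalexin genes, 1 per row, ordered by the line difference in red light. Triangles are line 1, squares line 9 and circles wild type. In the upper rows the red light square of line 9 lies to the right, at 7.36 in CPS2, and the red light triangle of line 1 lies near the dark arrays, at 2.98.

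Some other defence genes were also lower in line 1 in red light, and others were not. PBZ1, a pathogenesis-related protein that is a common marker of the defence response in rice, read 6.46 in line 1 and 6.51 in line 9 in darkness and 8.15 and 12.04 in red light, against 10.17 and 9.77 in red-grown wild type. The chitinase gene Cht2 read 5.15 in line 1 and 8.38 in line 9 in red light, against 7.07 and 6.57 in wild type. In both genes line 1 was below and line 9 above the wild-type arrays in red light. Another chitinase gene, Cht1, had the opposite order, with 5.25 in line 1 and 4.41 in line 9 in red light. Of the 49 defence genes, 34 were lower in line 1 in red light and 20 in darkness, with medians of -0.10 and 0.06. Between the wild-type replicates the medians were 0.19 and 0.25, larger than between the lines. At an unadjusted p under 0.05, 6 were lower and none higher, and none was called, against 4.17% and 0.0782% of all genes. LOX1.1, a lipoxygenase gene, read 3.38 and 3.28 in darkness and 3.50 and 7.21 in red light. Of the 40 jasmonate genes, 31 were lower in line 1 in red light and 16 in darkness, with medians of -0.24 and 0.02. At an unadjusted p under 0.05, 7 were lower and none higher, and none was called, against the same 4.17% and 0.0782% of all genes. Among 6 WRKY factors, regulators of defence gene transcription, OsWRKY62 read 5.73 and 5.12 in darkness and 4.64 and 6.63 in red light, and OsWRKY76 read 6.34 and 5.57 in darkness and 5.86 and 7.30 in red light. In both, line 1 was the higher line in darkness and the lower in red light. The list medians were 0.63 and -0.64, and between the wild-type replicates 0.45 and 0.34.

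The remaining lists had smaller medians. Over the 31 lists, 0 of 955 distinct genes were called (limma), where the share over all genes was 0.0782%, and 16 were higher and 44 lower in line 1 at an unadjusted p under 0.05, where the share over all genes in both directions was 4.17%. Apart from the phytoalexin genes, list medians over both lights lay between -0.17 for light signalling and 0.13 for ribosomal proteins. Some lists were lined up on one side with small differences. All 10 genes of the photosynthetic light reactions were lower in line 1 in darkness, with a median of -0.13, and 6 were in red light, with -0.04. Of 15 genes of carotenoid and plastid isoprenoid synthesis, 13 were lower in line 1 in darkness, with a median of -0.16. The medians of light signalling, carbon fixation and chlorophyll genes in darkness were -0.25, -0.18 and -0.13. Ribosomal protein genes had the opposite sign, with 0 of 24 lower in line 1 in darkness and 1 in red light and medians of 0.17 and 0.11. Of 68 cell division genes, 9 were lower in line 1 in darkness and 46 in red light, with medians of 0.21 and -0.07. Between the wild-type replicates in darkness the medians were -0.18 for the light reactions, -0.25 for ribosomal proteins and -0.24 for cell division, at least as large in size as between the lines. They were -0.05 for carotenoid, -0.07 for carbon fixation and -0.06 for chlorophyll genes, smaller than between the lines, and 0.16 for light signalling, of opposite sign. The largest wild-type list medians were those of 10 dehydrin and late embryogenesis genes, 0.57 in darkness and -0.79 in red light. In red light 5 of those genes differed by over 1 between the wild-type replicates.

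Markers of other tissue were checked, since the labels give above-ground tissue. The summed intensity of 28 root genes was, on the log2 scale, 10.81 in line 1 and 10.93 in line 9 in darkness and 11.13 and 11.66 in red light. That of 17 grain genes was 10.64 and 10.72 in darkness and 10.51 and 10.74 in red light. The 10 light reaction genes of the leaf summed to 15.83 and 15.95 in darkness and 15.96 and 16.01 in red light. The root sum was highest in line 9 in red light, the array with the high phytoalexin and defence values, and its part in those values was not tested. None of the root or grain genes was called between the lines, and their median differences over both lights were -0.08 and -0.03.

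**Figure D5:**
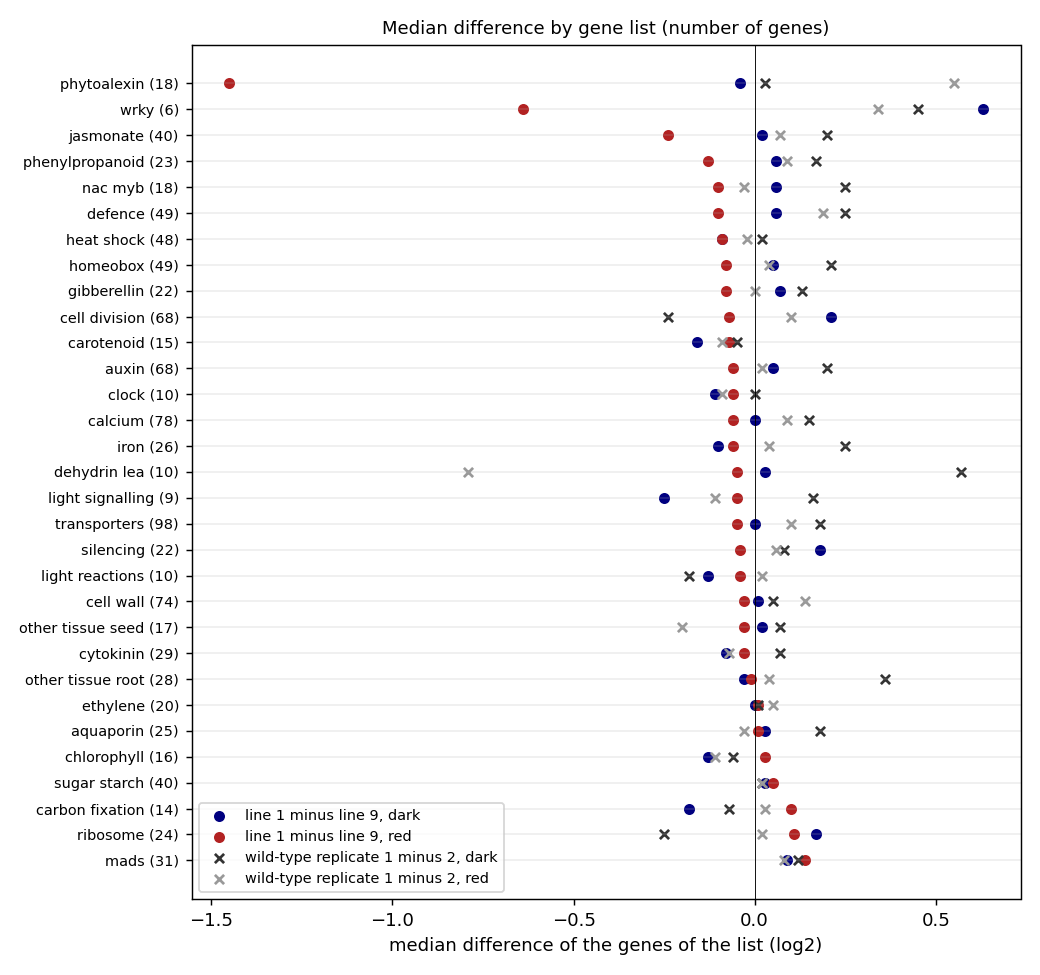
Median difference (x axis, log2) of the genes of each of the 31 lists, with the number of genes in brackets. Filled circles are line 1 minus line 9 in darkness and in red light, crosses wild-type replicate 1 minus replicate 2. Between the lines, the phytoalexin list stands at -1.45 in red light and -0.04 in darkness, and most other lists lie near 0. The crosses of the dehydrin and late embryogenesis list stand at 0.57 in darkness and -0.79 in red light.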

How the data were processed

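Each probe set has an intensity in each array, deposited on a linear scale to 1 decimal. The submitters' processing notes list RMA, GCOS and limma and give neither versions nor roles. The treatment of background and the centring of values, if any, were not given in the sources used here. Per the labels, RNA was labelled by 3' IVT amplification.

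Intensities as deposited were converted to log2 with no further normalization. Of 57381 probe sets, 123 Affymetrix controls were left out. By GEO's platform annotation, 22436 probe sets had 1 gene that is in the RefSeq gene table of assembly ASM3414082v1, and 95 had several. The other 34727 counted as without a gene, including any whose gene is not in that table. Of the 17905 genes kept in this way, 2457 carry a name there that is no locus or clone identifier. The brightest probe set over all arrays stood for its gene in lists.

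The model (limma 3.58.1, R 4.3.3) had 4 group means, a line term and a wild-type replicate term, with 2 residual and 4.61 prior degrees of freedom. The replicate number is the line in OsYHB, so it pairs the arrays there. Deviations from group means had a correlation of 0.145 between the OsYHB groups and 0.093 between the wild-type groups. Between dark wild type and OsYHB it was 0.003 for dark and -0.169 for red-grown OsYHB. Between red-grown wild type and OsYHB it was 0.078 for dark and -0.172 for red-grown OsYHB. Correlations of this size thus also occurred between arrays that share no line. For the change of the line difference with light, each OsYHB array was a group of its own, and the red light response was fitted to the wild-type arrays alone. Tests were two-sided with Benjamini-Hochberg adjustment over all probe sets. The labels call replicates biological, and p-values measure the spread between these arrays only. On simulated data for the line comparison, over 57258 probe sets, 40% of differences of 1 and 98% of differences of 2 on the log2 scale were recovered, with 10 false calls. The number of planted differences is not given here, so these false calls cannot be set against the calls in the data.

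The members and lists were chosen with earlier results of these data known. Text names the phytochromes, the marker, the 15 called named genes furthest out on each side and 5 without a name, and fills up to 10 named genes a side by test statistic. The 12 named genes most raised and most lowered by red light were added after seeing the data. Figures used matplotlib 3.10.9.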

Additional observations from a re-analysis of the deposited data

How the results depend on the processing

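The 42 calls between the lines became 16 in a fit of the OsYHB arrays only, 4 with a mean log2 intensity of at least 5, 1 with 16 added to each intensity, 3 with 1 probe set per gene, 8 in darkness alone, 10 in red light alone, and 6 to 16 without one array. With no replicate block in wild type there were 31 calls, 27 of them shared, and quantile normalization and an intensity trend gave 47 and 46. The 3 wild-type calls became 1 in a fit of the wild-type arrays only, 0 under the filter on dim probe sets, with the added 16 and with 1 probe set per gene, and 0 to 1 without one array. The cause of these changes was not tested, apart from the fewer arrays or probe sets that some settings use. All tested calls kept their sign, which many of these settings could not change. The PHYA probe sets reversed to -0.10 and -0.05 in red light alone, with ranges of -0.10 to 0.16 and -0.05 to 0.09 without one array, and PHYC to -0.02 in darkness alone, with -0.02 to 0.04 without one array. Leaving out the wild-type arrays for the change with light and in choosing the sets moved by red light, and other scalings of the phytoalexin list, were added after seeing the data. The change of the line difference with light stayed at 0 calls in each alternative tried. The median of the raised set, -0.100, became -0.160 in darkness alone, -0.007 in red light alone, -0.092 with quantile normalization, -0.085 with 16 added and -0.079 with the dim filter, and that of the lowered set, 0.001, became 0.044, -0.028, 0.005, 0.010 and -0.003. The phytoalexin median in red light, -1.45, became -1.46, -0.87 and -0.17 under the last 3 of these. These sets could not be rebuilt without a wild-type array, as 0 probe sets were then called, with 2473 to 6402 a direction at an unadjusted p under 0.05. Each line has 1 array per light, so a difference within 1 light has no replicate, and 45.1% to 45.9% of intensities are below 16, where no detection call bounds the values.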

Other observations

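Of the 17 genes called between the lines, 7 pairs are next to each other among the called genes of a chromosome in the order of the RefSeq table. In 4 pairs both genes have the same sign and in 3 the signs are opposite, with distances of 14 to 670 genes, and the spacing was not tested. LOC4338553 and LOC9270995, both higher in line 1, are 31 genes apart on one chromosome. Of the genes between them 17 were measured, with a median absolute line difference of 0.10 on the log2 scale. The largest was -0.81, in BGLU22, of opposite sign to the pair. Of the 17, 3 had an unadjusted p under 0.05 (limma), against 4.17% of all genes. LOC9270995 read 10.65 in line 1 and 8.93 in line 9 in darkness, and 10.28 and 8.08 in red light. LOC4347411 and LOC9266455, both higher in line 9, are 14 genes apart, with 6 measured between them and a median absolute difference of 0.08. Of those 6, 0 had an unadjusted p under 0.05 (limma). LOC4347411 read 7.28 in line 1 and 9.31 in line 9 in darkness, and 5.92 and 7.61 in red light. The next nearest pair, LOC4350282 and LOC4350344, 81 genes apart, has opposite signs, -1.91 and 1.49.

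Os.10660.1.S1_at was bright in both lines and dim in wild type. It read 3.38 to 4.15 in the 4 wild-type arrays, 8.76 and 8.69 in line 1, and 10.48 and 9.94 in line 9.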
